A study of Homo sapiens with 6 samples.

Results

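The step from 3 h to 6 h of coculture was described from a pair of arrays out of the 6 in the series. Caco-2 cells, an established human colon adenocarcinoma line that turns enterocyte-like when kept confluent, were exposed to THP-1 cells, a human monocytic leukaemia line. The Caco-2 cells had been grown for 14 days on a porous membrane. The THP-1 cells had been treated with phorbol myristate acetate (PMA), which makes them macrophage-like, for 4 days in plates of 12 wells, over which the membrane was then set. Arrays were taken at 0, 1, 3, 6, 24 and 48 h, with 1 array per time. The array at 6 h (n = 1) was set against the array at 3 h (n = 1), its neighbour in labelled time. The arrays and gene lists were chosen with earlier results of these data known, so the shares of lists given below are descriptions. Both arrays share the cell line, the culture age, the PMA-treated partner and the RNA preparation, and differ in the labelled time in coculture. No array of Caco-2 cells kept the same time without THP-1 cells was analysed here, so time in culture and exposure to THP-1 cells cannot be told apart. With 1 array a side there is no replicate error, no test was made and no p-value is given. The number of arrays limits the precision.

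Epithelial cells that meet macrophage products such as tumour necrosis factor and interleukin-1 switch on genes of the transcription factor NF-kB. Chemokines and the inhibitors that restrain NF-kB appear first, and later products include integrins, secreted proteases and metabolic enzymes. Glycolytic regulators in epithelium are also targets of the hypoxia-inducible factor HIF-1, which is held down by oxygen-dependent prolyl hydroxylases. Enterocyte-like Caco-2 cells make apolipoproteins and other serum proteins, absorptive enzymes and much mitochondrial machinery.

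In this step the chemokines and NF-kB inhibitors that were already high at 3 h stayed within 2-fold of that level. So did most measured genes, of which 1.13% were at least 2-fold higher and 1.51% lower. At least 2-fold higher at 6 h were 3 of 21 measured integrin and matrix genes and 3 of 31 hypoxia and glycolysis genes. So were 2 of 16 epithelial cytokines and 2 of 17 keratin and cytoskeleton genes, each against 1.13% of all measured genes. Among these calls only that of MMP9 held under every alternative processing, and the cytokine list had a median log2 ratio of -0.04. The gelatinase gene MMP9 rose most among genes with a signal of at least 100, 4.82-fold. Whether THP-1 RNA had a part in this was not tested. Genes of the mitochondrial ribosome and of serum proteins were mostly lower by small amounts, and the repressor of differentiation ID1 fell to a signal of 41.6. The clearest single fall was that of TCIM, 4.13-fold.

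A gene is called higher or lower here when its signals differed at least 2-fold and the brighter array lay above a floor of 16.2, the median of all deposited signals, to which lower signals were raised. Of 13296 genes above the floor on at least 1 of both arrays, 150 were higher at 6 h (1.13%) and 201 were lower (1.51%). The dimmer array was at the floor for 55 of the higher and 73 of the lower genes, whose folds are lower bounds. A further limit is the noise of dim spots: among the 7308 genes with a signal of at least 100 on the brighter array, 30 were higher and 26 lower. Signals within 1.5-fold of each other were found for 11500 genes (86.5%), and the median log2 ratio over all measured genes was -0.03. At a threshold of 4-fold 3 genes were higher and 4 lower. The step called fewer bright genes than any other interval between neighbouring arrays: 150 higher and 55 lower from 0 to 1 h, 71 and 60 from 1 to 3 h, 85 and 171 from 6 to 24 h, and 39 and 57 from 24 to 48 h. Over all measured genes the shares were 2.16% higher and 1.66% lower from 0 to 1 h, and 1.52% and 1.49% from 1 to 3 h. From 6 to 24 h they were 2.34% and 2.68%. From 24 to 48 h 145 of 13114 genes were higher and 202 lower, about as many as in this step. Over all measured genes the step was therefore not the quietest interval. Neighbouring intervals share an array and differ in length, so these counts are set side by side only.

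**Figure D1:**
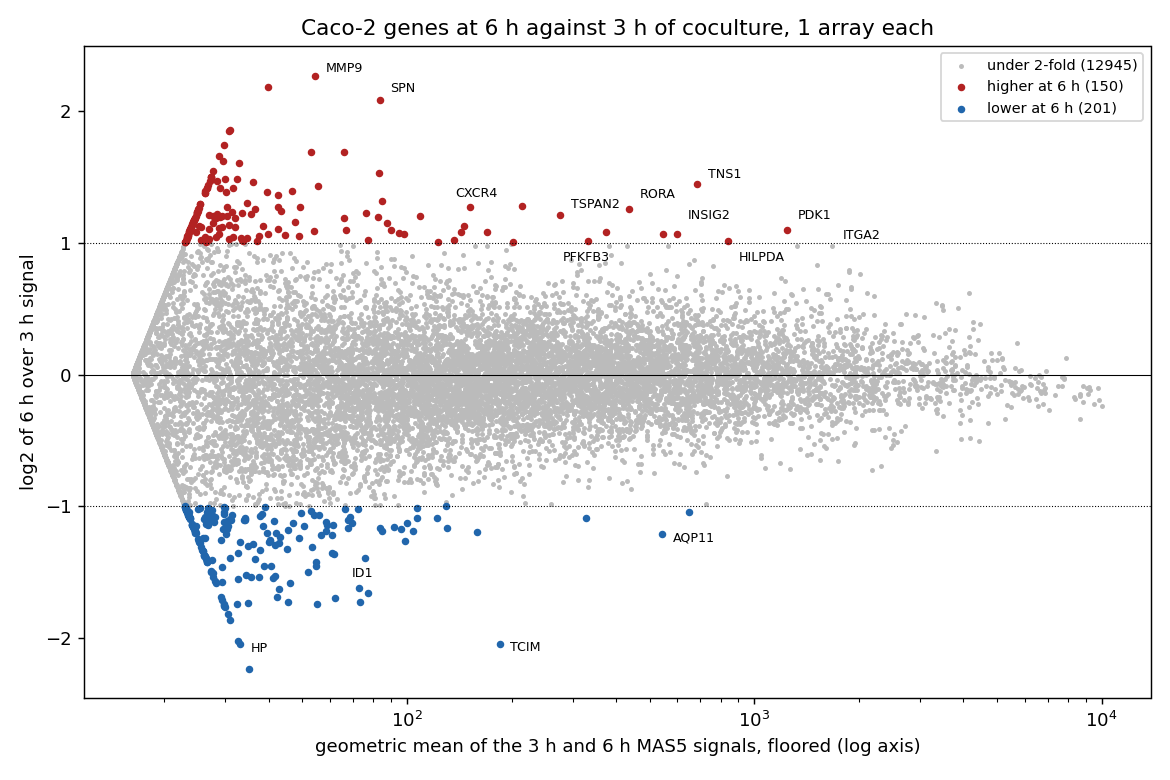
Each point is 1 of the 13296 measured genes. The horizontal axis is the geometric mean of the floored signals at 3 h and 6 h on a log axis, and the vertical axis is the log2 ratio of 6 h over 3 h, with 1 array each. Red points are the 150 genes at least 2-fold higher at 6 h and blue points the 201 at least 2-fold lower; dotted lines mark 2-fold. Most called genes lie at low signals, where the diagonal edges are genes with 1 array at the floor.

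The 6 arrays had a 2% trimmed mean signal of 93.7 each and median signals between 15.3 and 16.7. The ratio of 3' to 5' signal of ACTB, a sign of RNA integrity and labelling, was 22.9 at 3 h and 17.99 at 6 h, and that of GAPDH was 4.29 and 3.54. Their part in the results was not tested. The 18 spike-in control probe sets had a median log2 ratio of 0.0015 between the arrays. All 13 of the epithelial markers on the array, among them EPCAM, CDH1 and CDH17, were above the floor at both times, with a summed signal of 29417 at 3 h and 27653 at 6 h. Of 21 macrophage markers on the array, 7 were above the floor at 3 h and 10 at 6 h, with summed signals of 680 and 777, against 680 to 1065 over the 6 arrays. Besides LAPTM5, those above the floor at both times were LYZ (262 at 3 h, 199 at 6 h), AIF1 (110.5, 153), MSR1 (91.2, 60.5), CD14 (56.1, 41.9) and ITGAM (16.6, 22.0). Below the floor at both times were PTPRC, SPI1, FCGR2A, MARCO, CD163, CD4, ITGAX, FCER1G, CCL4 and CORO1A. ITGB2 (4.80 at 3 h, 23.6 at 6 h), TYROBP (1.71, 19.3), CSF1R (14.8, 25.5) and CD86 (13.0, 28.4) passed from below the floor to above it, and CYBB (20.5, 11.1) from above it to below. The marker LAPTM5, a lysosomal membrane protein of blood cells, rose 2.88-fold, with signals of 83.3, 75.9, 48.8, 141, 64.5 and 58.4 at 0, 1, 3, 6, 24 and 48 h. Whether carried-over THP-1 RNA contributed to this, or to the rises of MMP9, SPP1 and SPN given below, was not tested. The summed marker signal was highest at 0 h. In bulk RNA, fewer cells of a type and less RNA per cell cannot be told apart.

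Agreement between probe sets on this pair of arrays was read from genes with several of them. Expressed per probe set, log2 ratios within a gene had a robust SD of 0.45 at signals of 32 to 64. It was 0.33 at 64 to 128, 0.23 at 128 to 256 and 0.13 above 1024. Probe sets read the same RNA on the same arrays, so this spread holds no error between arrays or cultures. It describes dim and bright signals and does not measure how sure a call is. Other probe sets of called genes followed the call in part. For 56 genes called higher, 85 other probe sets were above the floor, of which 52 (61.2%) had a ratio above 0 and 18 differed at least 1.5-fold in the same direction, with a median log2 ratio of 0.17. For 69 genes called lower, 60 of 99 (60.6%) were below 0 and 21 were at least 1.5-fold lower, with a median of -0.12. Over all measured genes 47.1% of 11390 other probe sets were above 0, and 7.70% were at least 1.5-fold higher. With both probe sets at a signal of at least 100, all 7 other probe sets of 4 genes called higher were above 0, with a median of 1.00. For genes called lower the same limit left 5 probe sets of 2 genes with a median of -0.02.

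Short promoter sequences of 5 genes are shown here because they hold a match to a motif of NF-kB, AP-1 or the hypoxia response. The chemokine gene CXCL8 holds an NF-kB and an AP-1 match. Of the cytokines that rose, LTB holds an NF-kB match and EBI3 an AP-1 match, and each was searched for that motif only. The glycolytic regulators PFKFB3 and PFKFB4 hold the core of the hypoxia response element. CXCL8 and PFKFB4 were under 2-fold in the step. Each sequence is the 250 bases before the transcription start as listed in RefSeq for GRCh38.p14, written 5' to 3' on the gene's strand, with the matched motif in capitals. CXCL8 lies at chr4:73740319-73740568 on the plus strand and holds both an AP-1 and an NF-kB match. LTB lies at chr6:31582426-31582675 on the minus strand, EBI3 at chr19:4229273-4229522 on the plus strand, PFKFB3 at chr10:6144671-6144920 on the plus strand and PFKFB4 at chr3:48556804-48557053 on the minus strand.
CXCL8: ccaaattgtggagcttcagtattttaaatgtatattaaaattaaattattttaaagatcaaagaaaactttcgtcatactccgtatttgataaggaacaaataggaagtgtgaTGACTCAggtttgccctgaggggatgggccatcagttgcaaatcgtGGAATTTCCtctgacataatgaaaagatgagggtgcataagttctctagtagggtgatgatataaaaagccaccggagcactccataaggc
LTB: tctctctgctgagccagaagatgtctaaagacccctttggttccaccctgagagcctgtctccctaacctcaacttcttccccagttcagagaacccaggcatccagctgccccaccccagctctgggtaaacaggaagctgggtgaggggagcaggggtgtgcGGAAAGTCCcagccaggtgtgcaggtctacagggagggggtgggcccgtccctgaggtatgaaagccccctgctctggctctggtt
EBI3: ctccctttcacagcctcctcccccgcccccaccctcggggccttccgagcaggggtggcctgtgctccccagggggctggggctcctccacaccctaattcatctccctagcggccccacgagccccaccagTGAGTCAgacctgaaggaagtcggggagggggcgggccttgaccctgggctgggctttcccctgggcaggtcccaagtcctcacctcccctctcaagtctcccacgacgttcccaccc
PFKFB3: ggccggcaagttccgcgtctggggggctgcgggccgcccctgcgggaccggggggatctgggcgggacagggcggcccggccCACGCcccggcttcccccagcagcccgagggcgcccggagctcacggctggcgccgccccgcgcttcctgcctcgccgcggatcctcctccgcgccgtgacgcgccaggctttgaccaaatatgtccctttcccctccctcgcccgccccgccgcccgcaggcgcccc
PFKFB4: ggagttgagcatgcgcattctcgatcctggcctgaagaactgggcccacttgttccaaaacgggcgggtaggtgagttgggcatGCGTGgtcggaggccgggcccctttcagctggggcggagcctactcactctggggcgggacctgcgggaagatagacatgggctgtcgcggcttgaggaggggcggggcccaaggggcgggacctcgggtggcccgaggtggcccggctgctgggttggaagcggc
The kB motif was searched as GGANTTTCC and GGAAATTCC, AP-1 as TGANTCA and the hypoxia core as ACGTG or GCGTG, on both strands and with no overlap between the capitals shown. In CXCL8 the AP-1 match lay 137 to 131 bases and the kB match 91 to 83 bases before the start. The kB match of LTB, on the reverse strand, lay 86 to 78 bases before it, and the AP-1 match of EBI3 lay 118 to 112 bases before it. The hypoxia cores lay 168 to 164 bases before the start of PFKFB3, on the reverse strand, and 166 to 162 bases before that of PFKFB4. A kB match was found in 6 of 8 promoters of measured chemokines (75%) and in 1.49% of all 10723 promoters of measured genes. AP-1 matches were found in 5 of 12 promoters of measured epithelial cytokines (41.7%) and in 4.13% of all. The hypoxia core, a motif of 5 letters, is common: it was in 18 of 26 promoters of measured hypoxia and glycolysis genes (69.2%) and in 55.3% of all. Among the 107 promoters of genes called higher in the step, 1.87% held a kB match and 7.48% an AP-1 match. A match is a description of these letters and not of binding.

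Integrin and matrix genes had the highest median among the lists of epithelial pathways. Of 21 measured members 3 rose (14.3% against 1.13% of all measured genes), none fell at least 2-fold, and 16 had a log2 ratio above 0. The list's median log2 ratio was 0.36, against -0.03 for all measured genes. MMP9, a gelatinase that cleaves basement-membrane collagen, had signals of 21.6, 32.0, 24.7, 119, 47.0 and 62.2 at 0, 1, 3, 6, 24 and 48 h. Its 6 h value stood above all other arrays, and it rose 4.82-fold from 3 h. SPP1, osteopontin, a secreted integrin ligand, was under the floor at 3 h with 7.76 and reached 58.6 at 6 h, at least 3.61-fold higher; with a floor at the 65th percentile its log2 ratio was 0.64. Whether carried-over THP-1 RNA contributed to the rises of MMP9 and SPP1 was not tested. ITGA5, the fibronectin receptor's alpha chain, lay between 91.0 and 104 through 3 h and between 187 and 202 from 6 h on. It rose 2.03-fold in the step (log2 ratio 0.91 with a pseudocount in place of the floor). These ranges include the 3 h and 6 h arrays that gave the call.

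Other integrin genes differed by less than 2-fold; they and the other list members under 2-fold given in the text were chosen after their values were seen. ITGA2, the collagen receptor's alpha chain, had signals of 369.7, 376, 1197, 2349, 1464 and 795 over the 6 times. Its signal at 6 h was the highest of the 6, 1.96-fold above 3 h. ITGB8, a beta chain that partners ITGAV and activates latent TGF-beta, went from 26.6 at 0 h to 272 at 3 h and 535 at 6 h, and was 147 at 24 h. ITGAV itself had 1428 at 3 h and 2448 at 6 h, a log2 ratio of 0.78, and ITGA6, a laminin receptor chain, had 392 and 584, a log2 ratio of 0.58. These 4 genes climbed from 1 h on and had not returned to their 0 h level at 48 h. The collagenase gene MMP1 had already reached 3917 at 3 h from 475 at 0 h, and stood at 5096 at 6 h. Fibronectin, FN1, had 6064 and 5720.5, and the common beta chain ITGB1 3528 and 3966, both within 1.5-fold.

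Genes of the hypoxia response and glycolysis had as many calls. Of 31 measured members 3 rose (9.68%, against 1.13% of all) and none fell, 25 lay above 0, and the median log2 ratio was 0.25. The median of the same genes over 0 h was -0.09, 0.21, 0.04 and -0.01 at 3, 6, 24 and 48 h, so their level was highest at 6 h. PDK1, the kinase that holds pyruvate out of the mitochondrion, had signals of 1181, 778, 851, 1819, 935 and 844 at the 6 times, and rose 2.14-fold. Its other probe sets had log2 ratios from -0.62 to 0.75, so its probe sets disagreed, and its median over probe sets, 0.75, was under 2-fold. HILPDA, a lipid droplet protein induced by HIF-1, had 554, 132, 589.5, 1191, 241 and 528; PFKFB3, the enzyme that makes the activator of phosphofructokinase, had 190.5, 200.4, 234, 471, 193 and 195. Both were at least 2-fold higher at 6 h than at 3 h, 2.02-fold and 2.01-fold, and both were under their 3 h signal at 24 h. Both calls sit at the threshold: with a pseudocount PFKFB3 had a log2 ratio of 0.96, and over its probe sets HILPDA had a median of 0.68.

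Members under 2-fold went both ways. The related phosphofructokinase regulator PFKFB4 had 268 at 3 h and 477 at 6 h, a log2 ratio of 0.83. ERO1A, an oxidase of protein folding, had 1419.8 and 2459 and went on to 3405 at 24 h. The glucose transporter SLC2A1 had 2900.3 and 4149.7, and hexokinase HK2 275 and 399, while the hexokinase HK1 had 64.0 and 44.0. Isoenzymes differed in other steps too: the enolases ENO1 and ENO2 had log2 ratios of 0.16 and 0.66, and the aldolases ALDOA and ALDOC -0.04 and -0.40. Values near 0 were found for lactate dehydrogenase LDHA (0.04), PGK1 (0.11) and the HIF-1 targets VEGFA (0.02), BNIP3 (0.08), CA12 (0.07) and P4HA1 (-0.02), and GAPDH had -0.19. The prolyl hydroxylase EGLN1 had 1307 and 1859, a log2 ratio of 0.51.

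Chemokine genes, high since 1 h, held their level through the step. None of 11 measured members passed 2-fold in either direction, against 1.13% and 1.51% of all genes, and their median log2 ratio was 0.07. Over 0 h their median log2 ratio was 2.82 at 3 h and 2.80 at 6 h, and it was 0.91 at 24 h. CCL20, which attracts dendritic cells and lymphocytes, had signals of 453, 4303, 5519.7, 5321, 4229 and 1286 at the 6 times, level between 3 h and 6 h. CXCL8 (interleukin-8), the main attractant of neutrophils, had 8.50, 652, 925, 1541, 261 and 36.0, with its highest value at 6 h, 1.66-fold above 3 h. CXCL1 had 667 and 548, after 1158 at 1 h, and CXCL10 237 and 255. CXCL8 thus peaked at 6 h while CXCL1 was highest at 1 h.

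The brakes of NF-kB behaved like the chemokines. None of 13 measured inhibitors was called, with a median log2 ratio of 0.04. With 1.13% of all measured genes higher and 1.51% lower, no call in a list of this size, here or below, is near the share over all. TNFAIP3, the ubiquitin-editing protein A20, had 190.1, 1802, 1778, 1819, 889.9 and 251 at the 6 times, and NFKBIA, the inhibitor IkB-alpha, had 3229.9 at 3 h and 3103 at 6 h. Among subunit genes, with no call in 14 measured and a median of 0.18, the log2 ratio was 0.46 for NFKB1, 0.40 for NFKB2, 0.33 for RELA and -0.08 for RELB. Targets for survival and adhesion had a median of 0.30, with 12 of 13 above 0 and none past 2-fold. In this list ICAM1, which binds leukocyte integrins, had 387 and 506, BCL2L1, an inhibitor of apoptosis, 1009 and 1398, and GADD45B 145 and 218. The inhibitors and chemokines were level, then, while survival and adhesion targets leaned upward without a call.

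Among 16 measured epithelial cytokines 2 rose (12.5%, against 1.13% of all), none fell, and the median log2 ratio was -0.04, with 9 of 16 below 0. EBI3, a subunit shared by interleukin-27 and interleukin-35, had signals of 86.5, 132, 98.6, 209, 395 and 138, rose 2.12-fold and was highest at 24 h. LTB, lymphotoxin beta, a membrane ligand of the TNF family, had 4.18, 36.0, 67.8, 142, 74.7 and 46.3, rose 2.10-fold and was highest at 6 h. Neither gene had another probe set above the floor. With a pseudocount in place of the floor the log2 ratios were 0.97 for EBI3 and 0.92 for LTB, both under 2-fold. The LTB call rests on 1 probe set of the shared kind (_s_at): its other probe set was at the floor on both arrays, which gave a log2 ratio of 0 alone and a median of 0.53 over both. IL1B had 50.4 and 92.1, a log2 ratio of 0.87, and IL18, made constitutively by enterocytes, had 329 and 317. CXCR4, the receptor of the chemokine CXCL12, belongs to no cytokine list and was among the largest rises: its signals were 38.8, 13.8, 97.6, 235, 136 and 110.2, and it rose 2.41-fold to its highest value at 6 h (median over its probe sets 0.97). Its ligand CXCL12 was under the floor at both times.

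Other signalling groups gave few calls. Immediate early genes, the first transcripts made after a stimulus, had 1 of 33 measured members higher (3.03%, against 1.13% of all) and none lower, with a median log2 ratio of 0.11. The member called was KLF2, with 31.7 at 3 h and 76.4 at 6 h. EGR1, which peaked at 4944 at 1 h, had 4071 at 3 h and 2718 at 6 h, while FOS had 338 and 502 and MYC 1255 and 1759.7, both highest at 6 h. EGR1 and FOS therefore moved in opposite directions within 2-fold. No member of 29 measured interferon-response genes was called, with 14 above 0 and 15 below. IFIT3, an antiviral protein, had 206 and 134, and ISG20, an exonuclease, 148 and 259. Of 20 MAP kinase phosphatases and Ras feedback genes, SPRED3 alone was called (5%, against 1.13% of all), with 18.9 and 57.4, and the median was 0.04. JAK-STAT genes (24 measured), EGF receptor genes (9), p53 targets (20), genes of the unfolded protein response (30), junction genes (27), innate receptors (18), mucins (15), complement and defence genes (17), Wnt targets (15), Notch and lineage factors (19) and clock genes (15) had no call.

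In the TGF-beta and BMP list 1 of 22 measured members fell (4.55%, against 1.51% of all) and none rose, with a median log2 ratio of 0.10. ID1, a BMP-induced inhibitor of differentiation factors, had signals of 433, 1109.7, 128, 41.6, 40.3 and 33.6 at the 6 times. After its peak at 1 h it had dropped under its 0 h level by 3 h and fell 3.07-fold further by 6 h, where it stayed. ID3 had 49.7 and 26.1, a log2 ratio of -0.93, and ID2 844 and 905. The ligand TGFB1 had 282 at 3 h and 528 at 6 h, its signal transducer SMAD3 220.3 and 402, and the feedback inhibitor SKIL 378 and 249. TGFB1 and SMAD3 were highest at 6 h among the 6 arrays, with signals under 2-fold above 3 h.

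**Figure D2:**
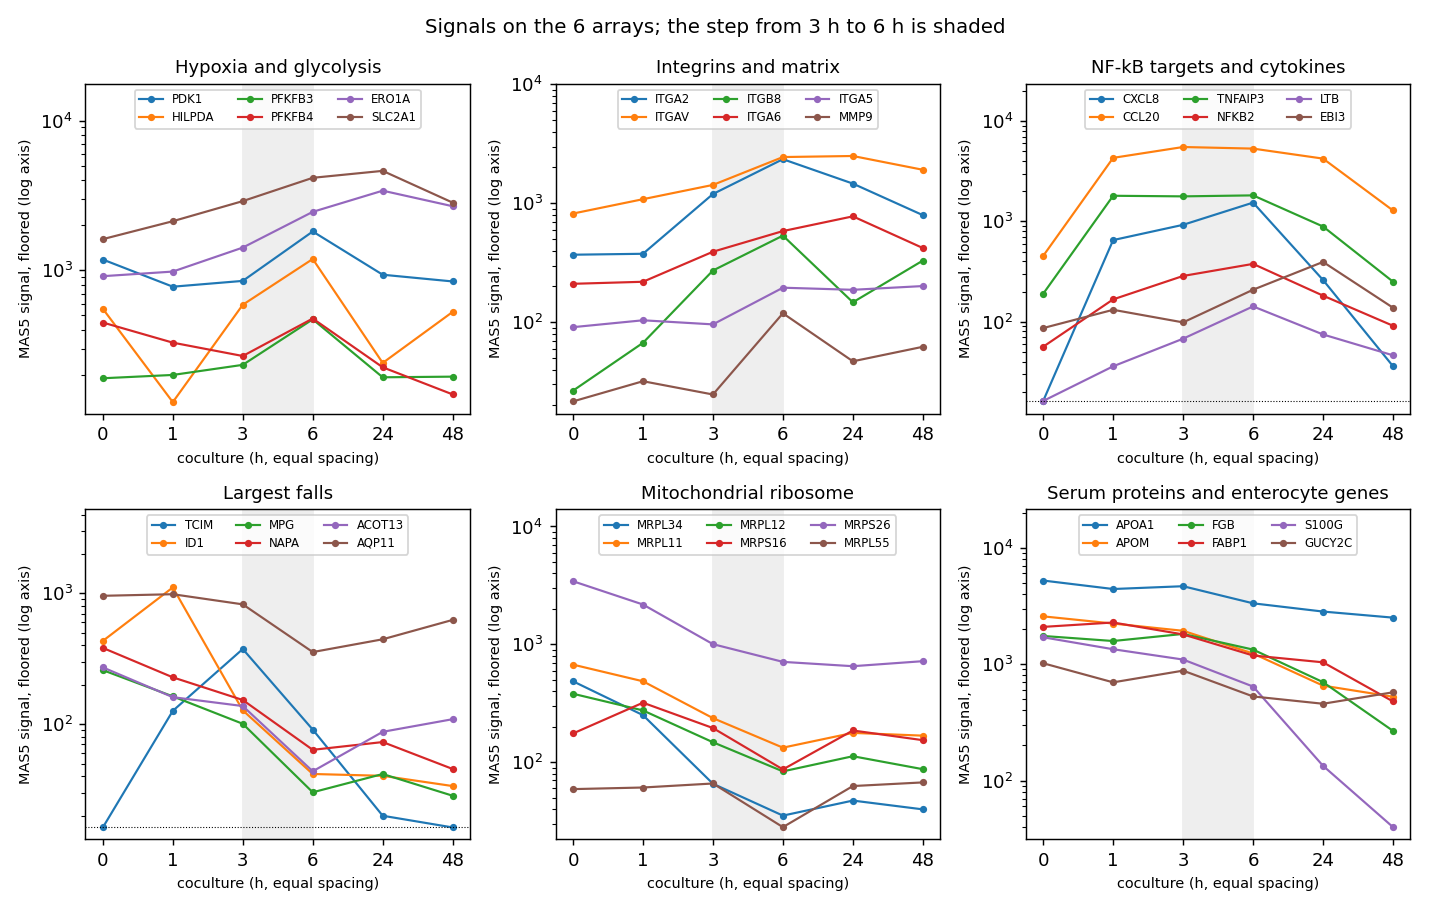
Signals of 36 genes at 0, 1, 3, 6, 24 and 48 h, 1 array per time, in 6 panels by group; times are equally spaced, the vertical axis is the floored MAS5 signal on a log axis, the dotted line is the floor and the step from 3 h to 6 h is shaded. PDK1, HILPDA, PFKFB3 and PFKFB4 are highest at 6 h, CCL20 and TNFAIP3 are level through the step, and MRPL34 and MRPS26 drop more before 3 h than after it.

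The remaining large rises came from genes of varied function. TNS1, tensin, which ties integrins to actin, had signals of 721, 585, 414, 1130.2, 879 and 1257, was lowest at 3 h and rose 2.73-fold; its 3 other probe sets above the floor, of 4, had log2 ratios of 0.20 to 1.42. RORA, a nuclear receptor of the clock and of lipid metabolism, had 451, 317, 283, 674, 353 and 507, and rose 2.38-fold to its highest signal at 6 h. TSPAN2, a tetraspanin, had 111, 143, 182, 419.9, 365 and 282 and rose 2.31-fold. In these 3 genes every other probe set above the floor had a log2 ratio above 0, but the median over probe sets was under 2-fold for RORA (0.30) and TSPAN2 (0.31). SPN, sialophorin (CD43), rose 4.24-fold from 40.5 to 172, but its single other probe set above the floor had a log2 ratio of -0.82, and its median over probe sets was 0. The stress chaperone HSPA6 had 22.6, 42.4, 49.7, 116, 279.9 and 105 and rose 2.34-fold on the way to its 24 h value, while the small chaperone HSPB1 fell from 38.0 to 17.8. Among 16 measured chaperone genes these were the only calls, 1 higher and 1 lower (6.25% each, against 1.13% and 1.51% of all). KRT38, a hair keratin, rose from 36.7 to 119, and GABARAPL1, an autophagosome protein, from 53.9 to 134. INSIG2, which retains the sterol sensor in the endoplasmic reticulum, was the only called gene of 21 measured in cholesterol synthesis (4.76%, against 1.13% of all). It had 535, 345, 412, 865, 279 and 361 and rose 2.10-fold, while the synthesis genes HMGCS1 and SQLE had log2 ratios of -0.16 and 0.01. The cytoskeletal list had 2 of 17 measured members higher (11.8%, against 1.13% of all) and none lower. These were VIM, vimentin, from 26.6 to 68.2, and ANXA1, annexin A1, from 18.6 to 48.7, both at low signal. Further rises among the largest were LCORL (2.42-fold), HS3ST3B1 (2.30-fold), SLC17A9 (2.29-fold), RNF39 (2.22-fold) and PAQR3 (2.18-fold). Other probe sets above the floor had log2 ratios of -0.51 and 0.59 for LCORL, 0.23 and 0.33 for HS3ST3B1 and -0.37 and -0.12 for SLC17A9. Of the 50 named genes, rises and falls together, 21 had another probe set above the floor. For 9 of these 21 at least 1 such probe set differed at least 1.5-fold in the same direction.

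Chosen after its values were seen, SPIRE1, an actin nucleator, was a rise seen by several probe sets. Its signals were 271, 256, 377, 789, 887 and 902 at the 6 times, it rose 2.09-fold, and its 3 other probe sets had log2 ratios of 0.83 to 1.41. PCSK6, a proprotein convertase, chosen in the same way, rose 2.12-fold from 257 to 543, with a log2 ratio of 1.24 at its other probe set above the floor.

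Falls were led by TCIM, a regulator of Wnt signalling. Its signals were 14.7, 126, 375, 90.9, 19.9 and 7.36 at the 6 times. It climbed to 3 h, fell 4.13-fold by 6 h and was back at the floor by 48 h. A second kind of fall had begun before the step: MPG, a DNA glycosylase of base excision repair, had 259, 163, 101, 30.1, 41.6 and 28.4, NAPA, the attachment protein alpha-SNAP of membrane fusion, 383, 228, 153, 63.6, 73.0 and 45.4, and ACOT13, a mitochondrial thioesterase, 272, 161, 138, 43.6, 87.4 and 109. MPG and NAPA fell 3.34-fold and 2.40-fold in the step and remained under their 3 h signal, while ACOT13 fell 3.15-fold and then regained part of it. AQP11, an intracellular water channel, was the brightest of the largest falls, with 958, 985, 824, 356, 446 and 627, a drop of 2.32-fold. Others of the largest falls were REX1BD (3.30-fold), the methyltransferase SMYD3 (3.24-fold), BLTP2 (2.62-fold), NANOS1 (2.28-fold), CENPX (2.28-fold), ATPSCKMT (2.27-fold) and C2, complement component C2, which fell from 126 to 56.0. In the fatty acid list SLC27A4, a fatty acid transporter, fell from 44.6 to 16.9, the only call of 21 measured genes (4.76%, against 1.51% of all).

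Genes of the mitochondrial ribosome, which translates the few proteins encoded in mitochondrial DNA, were lower together by small amounts. Of 31 measured members 2 fell (6.45%, against 1.51% of all), none rose, 29 had a log2 ratio below 0, and the median was -0.22. Over 0 h the list's median was -0.17, -0.57, -0.84 and -0.38 at 1, 3, 6 and 24 h, so the step continued a decline that was deepest at 6 h. MRPS16 had 175, 319.9, 195, 86.9, 186 and 154 and fell 2.24-fold, with -0.14 at its other probe set and a median of -0.65. MRPL55 had 59.2, 61.0, 66.0, 28.1, 62.8 and 67.4 and fell 2.35-fold. Both dipped at 6 h alone: each was near its 3 h signal again at 24 h. MRPL34, by contrast, went from 486 at 0 h to 65.7 at 3 h and 35.3 at 6 h, and MRPL11 from 673 to 237 and 133, and neither regained its 0 h level. The respiratory chain had no call among 34 measured genes, with 23 below 0 and a median of -0.15, and proteasome subunits (28 measured) had none, with a median of -0.13. Cytosolic ribosomal proteins had a median of -0.10, 19 of 24 below 0 and none called.

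Serum protein genes, the liver-like products of Caco-2 cells, had the lowest median of the 41 lists, -0.27. Of 31 measured members 28 were below 0 and 1 fell at least 2-fold (3.23%, against 1.51% of all). That member was HP, haptoglobin, an acute-phase protein, with 67.1 at 3 h and 4.96, under the floor, at 6 h, at least 4.13-fold lower; with a floor at the 65th percentile its log2 ratio was -0.84. The bright members moved less. APOA1, the main protein of high-density lipoprotein, had signals of 5216, 4411, 4662, 3324, 2824 and 2505, and APOM 2569, 2229, 1931, 1232, 653 and 524. FGB, the beta chain of fibrinogen, had 1815 and 1331, and albumin, ALB, 3106 and 2371. In each of these 4 the 6 h array lay under all earlier arrays and the later arrays lay under 6 h. APOB and APOA2 were nearly level, with log2 ratios of -0.08 and -0.07.

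Enterocyte genes leaned the same way without a call: 17 of 26 measured were below 0 and the median was -0.08. S100G, the intestinal calcium-binding protein, had 1699, 1341, 1093, 641, 134 and 39.8, a log2 ratio of -0.77 within a decline that ran over all 6 times. GUCY2C, the guanylin receptor, had 878 and 527, and villin, VIL1, 2328 and 1605. The fatty acid carrier FABP1 had 1797 and 1185. Sucrase-isomaltase, SI, and dipeptidyl peptidase DPP4 were level, with log2 ratios of 0.03 and 0.06. The list's largest difference was upward: GUCA2A, guanylin, had 130.2 and 235, a log2 ratio of 0.85, and KRT20 had 545 and 674. Among genes with a signal of at least 100 those nearest the 2-fold line, taken for that alone, were RRAS (higher, 86.4 and 174) and GPD1 (lower, 184 and 91.8) just inside it, and FEM1C (higher, 141 and 280.3) and NTHL1 (lower, 114 and 57.5) just outside.

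Cell-cycle genes had 32 of 40 measured members below 0, a median of -0.13 and 1 call, a fall (2.50%, against 1.51% of all). MCM5, a subunit of the replicative helicase, had 166, 70.4, 90.6, 33.1, 98.8 and 136 and fell 2.74-fold, with its lowest signal at 6 h; over its probe sets the median was -0.73. Its partners MCM3, MCM6 and MCM7 were level, with log2 ratios of -0.04, -0.03 and -0.01. Of 10 measured histone genes 1 fell (10%, against 1.51% of all): H2BC5 had 144 and 64.1, while H2AC6 had 267 and 166 and H2BC12 1305 and 840.3. In 3 other lists the single call was a dim gene that was higher, against 1.13% of all measured genes. These were the metallothionein MT1F of the transporters (35 measured, 2.86%), the gasdermin GSDMB of the cell-death genes (25, 4%) and RRP12 of ribosome assembly (20, 5%). Drug-metabolism genes (35) and antioxidant genes (20) had no call. The 41 lists together held 873 distinct measured genes, of which 18 were called higher (2.06%, against 1.13% of all) and 8 lower (0.916%, against 1.51%).

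**Figure D3:**
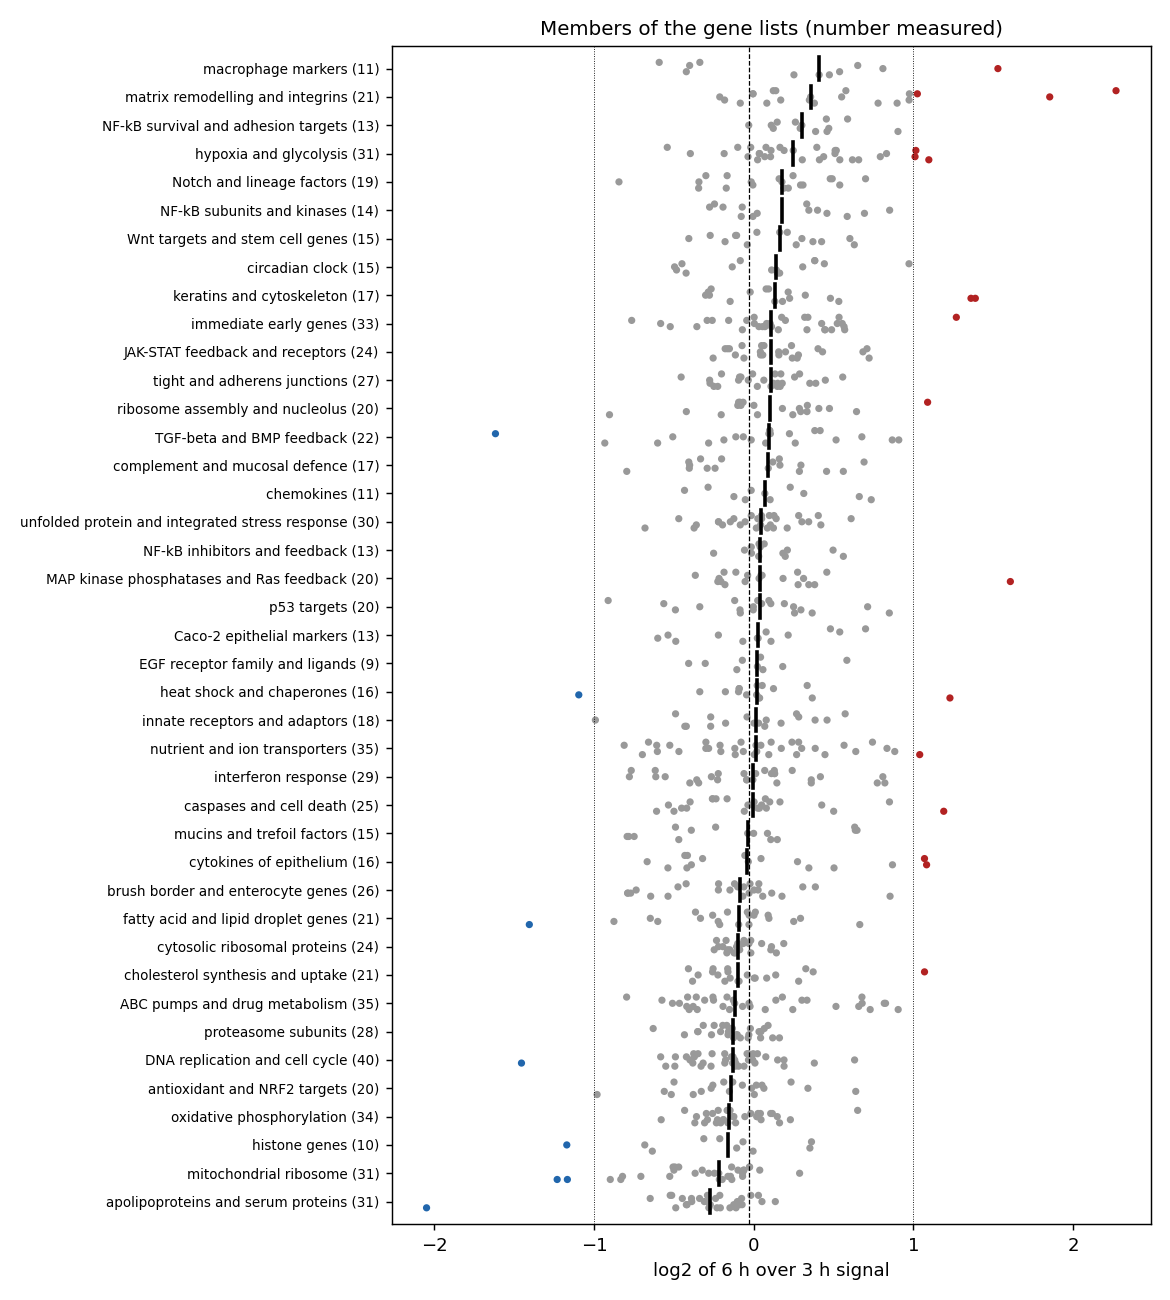
Log2 ratio of 6 h over 3 h for every measured member of the 41 gene lists, with the number of measured members in parentheses. Grey points are under 2-fold, red points at least 2-fold higher and blue points at least 2-fold lower; the black bar is each list's median, the dashed line the median of all measured genes (-0.03) and the dotted lines 2-fold. Matrix and integrin genes (median 0.36) lie near the top and serum proteins (median -0.27) at the bottom, and the macrophage markers at the top (median 0.41) are 11 mostly dim genes whose median ranged from -0.40 to 0.45 under other processing.

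The arrays that the step did not use gave a separate look at the called genes. Between 1 h and 24 h, 132 of the genes called higher in the step were measured and had a median log2 ratio of 0.34, with 25 at least 2-fold higher (18.9%) and 5 lower. The 193 measured genes called lower had a median of -0.27, with 36 at least 2-fold lower (18.7%) and 5 higher. Over all 13052 genes measured on those arrays the median was -0.01, with 2.87% higher and 5.13% lower. These shares were not computed for all bright genes. Among the bright calls the shift was larger than among all calls: of 30 called higher, 12 were at least 2-fold higher at 24 h than at 1 h and none was lower, with a median of 0.82. Of 26 bright genes called lower, 9 were at least 2-fold lower and none was higher, with a median of -0.77. LCORL, SPIRE1 and TSPAN2 were among those at least 2-fold higher at 24 h, and MPG, NAPA and ID1 among those at least 2-fold lower. This ratio also holds the changes from 1 to 3 h and from 6 to 24 h. ID1 had already gone from 1110 at 1 h to 128 at 3 h, and MPG from 163 to 101. Between 0 h and 48 h the medians were 0.17 and -0.31, against -0.09 over all genes.

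**Figure D4:**
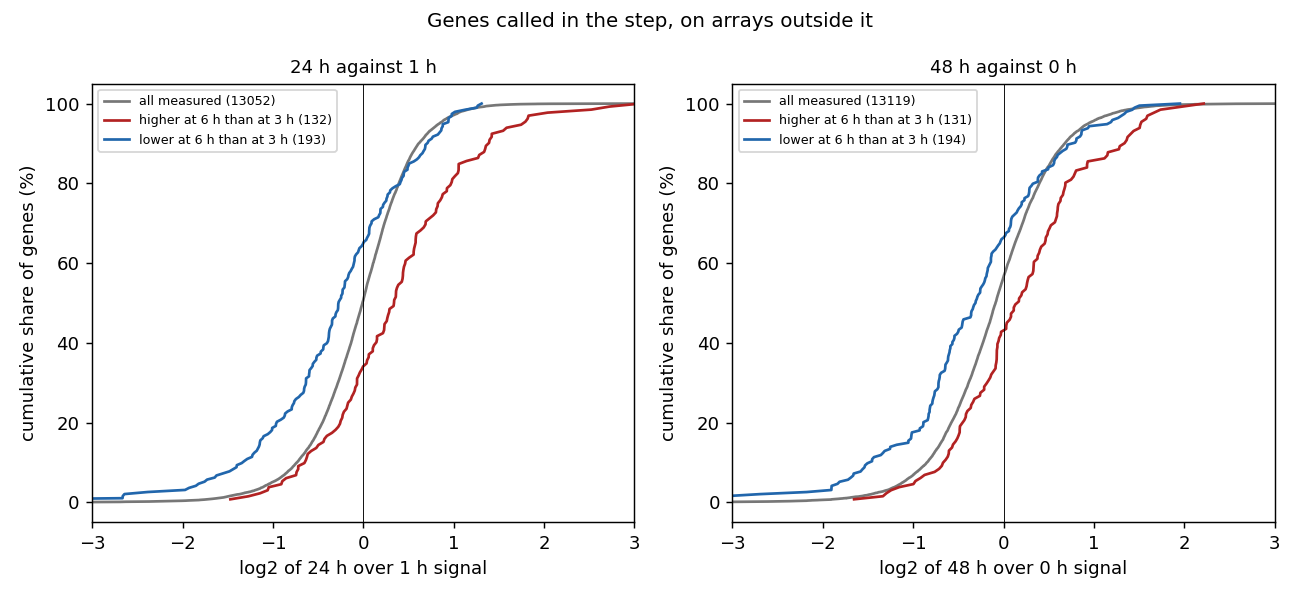
Cumulative share of genes (%) against the log2 ratio of 24 h over 1 h (left) and of 48 h over 0 h (right), from arrays that did not enter the step. Grey lines are all measured genes, red lines those at least 2-fold higher at 6 h than at 3 h and blue lines those at least 2-fold lower. On the left the red line lies to the right of the grey one (median 0.34 against -0.01) and the blue line to its left through most of its range (median -0.27).

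Called genes were compared with all measured genes in 2 properties that the size rule did not use. The median genomic span, by RefSeq, was 18765 bp for genes called higher, 23973 bp for genes called lower and 28315 bp for all. With a signal of at least 100, genes called lower had a median span of 13229 bp (25 genes), against 32988 bp for all bright genes and 33400 bp for bright genes called higher. The median GC content of the 250 promoter bases was 74.0% in the 19 bright genes called lower with a listed promoter, against 65.6% in all bright genes and 65.2% in the 24 called higher. Bright genes that fell were therefore shorter and had promoters richer in GC than bright genes as a whole in these medians, which were not tested. The difference in GC was small with dim genes included: the median was 65.6% in the 156 promoters of all genes called lower. It was 64.4% in all measured genes and 63.2% in all genes called higher.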

How the data were processed

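The authors deposited a linear intensity for each probe set, computed with MAS5 per the submitters' processing notes. Which MAS5 version, scaling target and detection calls were used is not given in the sources used here. Per the labels' protocols, total RNA was isolated with ISOGEN and RNeasy, and 4 µg was made into biotinylated cRNA. MAS5 scales each array to 1 mean, so RNA per cell is not measured.

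Of 54675 probe sets (62 controls), 41091 carried 1 gene symbol, 1801 several and 11777 none; 41043 were found in RefSeq GRCh38.p14. Each of 19775 genes was represented by its brightest probe set (highest mean log2 intensity). Intensities below 16.2, the pooled 50th percentile, were raised to that floor, and log2 ratios were taken with no further scaling. A gene needed a 2-fold difference and a brighter array above the floor. The text names the 15 largest rises and falls with a signal of at least 100 and up to 4 called members a list; others are said to be chosen after their values were seen, as were the hypoxia core motif and the genes plotted by time. The arrays and gene lists were chosen with earlier results of these data known. Of genes with several listed starts, the first start's promoter was used. Scripts ran in Python 3.11.15 with numpy 2.4.6, pandas 2.3.3 and matplotlib 3.10.9, and the size rule was tested on simulated data. Alternatives changed the scaling, the floor, the probe sets and the size rule.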

Additional observations from a re-analysis of the deposited data

How the results depend on the processing

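The number of genes called depends on the size rule and on how dim signals are treated. Against 150 genes higher and 201 lower, a floor at the 30th percentile (6.38) gave 996 and 1067, a floor at the 65th percentile (37.5) gave 38 and 52, and taking each gene's median over its probe sets gave 65 and 97. A 1.5-fold rule gave 754 and 1042, a 3-fold rule 11 and 23, and a signal of at least 100 gave 30 and 26. Quantile normalization (184 and 173), a common median (174 and 184), a pseudocount in place of the floor (143 and 156) and leaving out probe sets ending in _x_at or _s_at (114 and 160) stayed within 1.5 times. Of the 50 named genes, 13 kept their call under every alternative that gave a value (MMP9, KRT38, LAPTM5, TNS1, HSPA6, INSIG2, TCIM, MPG, REX1BD, SMYD3, ACOT13, ID1 and AQP11). Besides the genes given above with such a value, the floor at the 65th percentile ended the calls of SPRED3, HSPB1, SLC27A4, MT1F, ANXA1, VIM, GSDMB and MRPL55, and leaving out shared probe sets those of NAPA, KLF2 and MCM5. The median over probe sets ended those of GABARAPL1, LCORL, HS3ST3B1, PAQR3, BLTP2, NAPA, NANOS1, ATPSCKMT, H2BC5, C2, KLF2 and RRP12, and the pseudocount those of RNF39 and CENPX. These lists are not complete, and several of the genes lost their call under further alternatives. VIM, MT1F and MRPL55 kept it under 3 of 6, GSDMB under 3 of 7, H2BC5 under 4 of 6, and KLF2, ANXA1 and RRP12 under 4 of 7. SLC17A9 reversed to -0.12 (log2) with the median over probe sets, GSDMB to -0.12 with that median and without the shared probe sets, and RRP12 to -0.37 without the shared probe sets; the cause was not tested. List medians ranged from 0.20 to 0.42 for matrix and integrins, 0.17 to 0.51 for hypoxia and glycolysis, -0.27 to -0.23 for serum proteins and -0.25 to -0.12 for the mitochondrial ribosome; 22 of 41 lists had no change of sign. The called genes' medians on other arrays were 0.34 and -0.27 from 1 h to 24 h and 0.17 and -0.31 from 0 h to 48 h. No paired analysis was possible because each time has 1 array and the labels give no replicate numbers, and no replicate could be left out.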
